A study of Mus musculus with 17 samples.

Results

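The transcripts described here set the libraries labelled KO apart from those labelled WT: Esr1, A1cf and Gt(ROSA)26Sor. They were 3 of the 55486 genes in the deposited count table, and were chosen by their counts, near 0 or low in every WT library and present in every KO library. The difference between KO and WT is therefore what selected them, and it is described here without a test. All 3 were among the 13229 genes that passed a filter on low counts, Esr1 and A1cf only through their counts in KO.

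The study asked which transcripts depend on MBNL1, a muscleblind splicing and RNA-stability factor, for how long they last. RNA was sequenced from ventricular cardiomyocytes of 60-day-old mice, isolated with Liberase and kept on laminin for 3 h. Actinomycin D, which blocks transcription, was then given at 2 µg/mL. The libraries came from MBNL1 loss-of-function (KO) cells before treatment and after 4 and 8 h, with 3 libraries each, and from control (WT) cells at the same times, with 3, 2 and 3 libraries, 17 in all. The baseline libraries are those before actinomycin D; the cells of the other times had all been given it. The labels give the genotype in these words alone: the Mbnl1 allele, any Cre driver or inducing agent, and whether the WT mice carried one were not given in the sources used here.

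Esr1 encodes the oestrogen receptor alpha, a transcription factor that chaperones hold inactive until a hormone binds it. Its mutated hormone-binding domain is fused to Cre recombinase in inducible knockout lines, so that the enzyme enters the nucleus when tamoxifen is given. MerCreMer, a fusion of this kind, is used with the Myh6 promoter to delete genes in cardiomyocytes. A1cf encodes the APOBEC1 complementation factor, an RNA-binding protein best known in liver and gut, where it places the APOBEC1 enzyme on the Apob transcript for C-to-U editing. Gt(ROSA)26Sor is a broadly expressed noncoding RNA whose locus is a common site for inserted reporters and transgenes.

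Library totals ran from 17058419 to 17968827 gene counts, of which mitochondrially encoded genes took 35.1 to 43.3%. The gene named by the genotype, Mbnl1, had 1627 to 1820 counts in KO and 1465 to 1823 in WT. It was higher in KO by 0.19 ± 0.05 (log2, SE) at baseline (adjusted p = 8.07e-04, edgeR). These counts span the whole gene and say nothing of a deletion within it, and KO and WT below are the labels of the libraries. All 16 cardiomyocyte markers of a fixed list were detected in all 6 groups, with summed levels of 70086 to 112517 CPM (counts scaled to library size and composition). WT replicate 3 at 8 h stood apart in Esr1, with 57 counts against 0 to 8 in the other 7 WT libraries, and results that rest on it are given with and without it. Nothing in the labels says that replicates came from separate animals, so p-values measure the spread between these samples, and in bulk RNA fewer expressing cells and less RNA per cell cannot be told apart.

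The 3 genes lie on different chromosomes in the mouse genome (GRCm38, GENCODE M21). Esr1 (ENSMUSG00000019768) covers chr10:4611593-5005614 on the plus strand, with 13661 bases of exon. A1cf (ENSMUSG00000052595) covers chr19:31868764-31948995 on the plus strand, with 3771 bases of exon. Gt(ROSA)26Sor (ENSMUSG00000086429) covers chr6:113067428-113077333 on the minus strand, with 1695 bases of exon, and overlaps the 3′ end of the plus-strand gene Thumpd3. The RefSeq gene table lists alpha-MHC-MerCreMer and MerCreMer among the synonyms of A1cf. That is an entry of the annotation and names no allele of these mice.

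The annotated starts of Esr1 and A1cf are shown as the loci to which the counts are assigned; the counts themselves do not show where a transcript started. The sequences are the 250 bases before each start in RefSeq (GRCm38.p6, plus strand, 5′ to 3′), 2 for Esr1 at chr10:4611739-4611988 and chr10:4709908-4710157 and 1 for A1cf at chr19:31868563-31868812. These starts are not the outermost ones of the genes. Both Esr1 windows lie inside the GENCODE span of Esr1, and the A1cf window runs past the GENCODE start of A1cf, 31868764. Capitals mark GGTCA, or its complement TGACC, the half-site of the oestrogen response element.
Esr1, first window: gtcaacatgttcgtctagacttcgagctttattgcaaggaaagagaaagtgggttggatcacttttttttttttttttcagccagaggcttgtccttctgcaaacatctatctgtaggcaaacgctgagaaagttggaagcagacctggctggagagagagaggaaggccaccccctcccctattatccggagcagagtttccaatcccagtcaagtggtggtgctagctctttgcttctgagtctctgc
Esr1, second window: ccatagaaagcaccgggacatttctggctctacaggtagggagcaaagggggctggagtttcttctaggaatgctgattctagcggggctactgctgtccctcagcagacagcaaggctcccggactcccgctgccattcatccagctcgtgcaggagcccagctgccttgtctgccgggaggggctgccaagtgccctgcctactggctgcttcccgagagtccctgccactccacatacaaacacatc
A1cf: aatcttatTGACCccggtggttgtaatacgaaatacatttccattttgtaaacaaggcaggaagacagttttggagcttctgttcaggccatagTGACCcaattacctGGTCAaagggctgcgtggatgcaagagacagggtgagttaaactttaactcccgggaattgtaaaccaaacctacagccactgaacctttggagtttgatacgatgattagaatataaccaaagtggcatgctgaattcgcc
The A1cf window held 3 half-sites and the Esr1 windows held 0, where 35.2% of 32851 such promoter windows held at least 1. The whole element, GGTCANNNTGACC, was searched on both strands; it contains the half-site, was in 0.0639% of windows, and was in none of the 3 shown. Gt(ROSA)26Sor was not matched in the promoter table.

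Esr1 was among the abundant messages of every KO library and close to absent in WT. In KO it had 46057, 39273 and 41654 counts at baseline, 41185, 40454 and 37853 at 4 h, and 39139, 36443 and 38516 at 8 h. In WT it had 3, 2 and 1 counts at baseline, 2 and 0 at 4 h, and 7, 8 and 57 at 8 h. The lowest KO library was 675 times the highest WT library in CPM, and the genotypes did not overlap. At baseline the KO level was 2451 ± 127 CPM (SD, n = 3) against 0.103 ± 0.0574 in WT (SD, n = 3). With so few WT counts the ratio of the genotypes is known only to a factor: 21097 at baseline (exact 95% counting interval 9693 to 57489.6), 39042 at 4 h (10808 to 322384), and 1543 at 8 h (1225 to 1972). Without WT replicate 3 the 8 h ratio was 4932 (2989.97 to 8812). These intervals cover counting error only.

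Per kilobase of exon, Esr1 in KO sat within the range of sarcomere and calcium-handling genes. It reached 179 CPM per kb at baseline, rank 164 of 13185 nuclear genes tested. On the same scale Myh6, the alpha myosin heavy chain, was at 2948 (rank 5), Actn2, the Z disc actinin, at 359 (rank 75), and Ryr2, the calcium release channel, at 49.6 (rank 522). In WT at baseline Esr1 was at rank 13181. The gene-level counts do not show which exons the reads came from, and dividing by the full exon length understates the level of a transcript that holds only some of them.

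A1cf was present at a low level in KO and at the edge of detection in WT. KO libraries had 30, 29 and 36 counts at baseline, 31, 38 and 38 at 4 h, and 34, 30 and 29 at 8 h. Every WT library had 0 counts except replicate 1 at 4 h, which had 1. The groups did not overlap, and all 9 KO libraries lay within 29 to 38 counts. Against a floor of 3 counts over the WT group, A1cf was at least 31.6-fold higher in KO at baseline and at least 30.2-fold higher at 8 h, or 20.1-fold without WT replicate 3, where the floor is spread over fewer libraries. At 4 h the ratio was 69.9 (exact 95% counting interval 12.3 to 2787). Per kilobase it reached 0.487 CPM in KO at baseline, rank 10216 of 13185, so the gene was far below Esr1 in the same libraries.

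Gt(ROSA)26Sor was expressed in both genotypes and was higher in KO. It had 154, 186 and 174 counts in KO at baseline, 167, 159 and 190 at 4 h, and 180, 149 and 170 at 8 h. In WT the counts were 34, 38 and 42 at baseline, 23 and 25 at 4 h, and 39, 44 and 32 at 8 h. Every KO library was above every WT library. The ratio of KO to WT was 4.49 at baseline (exact 95% counting interval 3.66 to 5.56), 7.02 at 4 h (5.22 to 9.65) and 4.23 at 8 h (3.44 to 5.22). Per kilobase it stood at 5.87 CPM in KO at baseline (rank 3343) and 1.13 in WT (rank 8301).

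**Figure D1:**
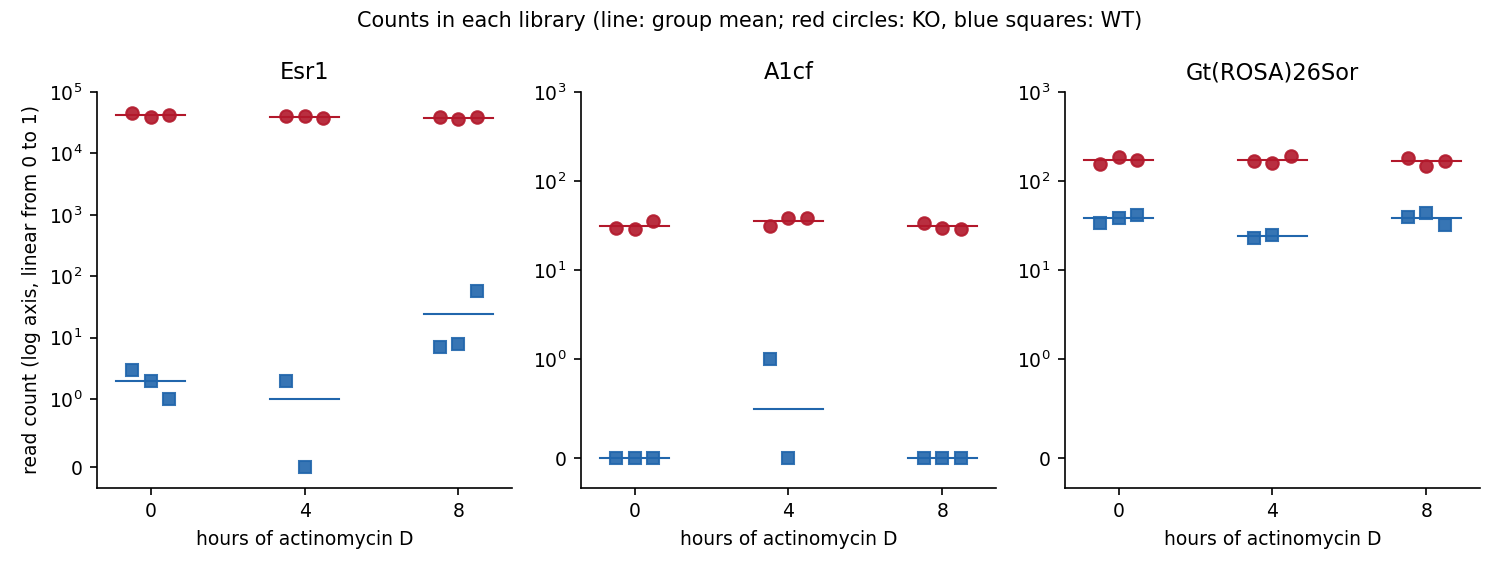
Read counts of the 3 genes in each of the 17 libraries (points; KO circles, WT squares) at 0, 4 and 8 h of actinomycin D, with group means as lines, on a log axis that is linear from 0 to 1. Esr1 lies at 36443 to 46057 counts in KO and at 0 to 57 in WT, A1cf at 29 to 38 and 0 to 1, and Gt(ROSA)26Sor at 149 to 190 and 23 to 44.

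The members spread differently around their group means. Esr1 varied by 2.14 to 5.17% (coefficient of variation of CPM) within KO groups, above the 0.486 to 0.513% that counting alone gives. Gt(ROSA)26Sor varied by 8.01 to 12.5%, with counting at 7.62 to 7.75%. A1cf varied by 8.31 to 13.4%, below its counting error of 16.7 to 17.96%. For A1cf and Gt(ROSA)26Sor the depth therefore limits what a time course can show.

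Separation of the genotypes by all libraries was not rare in these data. All 9 KO libraries were above all 8 WT libraries for 439 of the genes tested (3.32%), the 3 members included, and the reverse held for 574 (4.34%). Where the lowest KO library was at least 4 times the highest WT library, 8 genes remained (0.0605%), and the reverse held for 8 (0.0605%). In this ranking the highest library of the lower genotype was taken as at least 3 counts, and every library of the higher one had to hold at least 10. Esr1 came first at 675. It was followed by Gm43305, a predicted gene, at 23.8, then by Sun3, a nuclear envelope protein best known from testis, at 18.3 and Stbd1, a glycogen-binding protein, at 16.3. Tnnt3, the fast skeletal troponin T, was at 9.51. A1cf was at 9.06, a value and place set by the floor of 3 counts, since its highest WT library had 1 count. Gt(ROSA)26Sor, at 3.45, was the 12th gene of the ranking and fell short of 4, between Gm10704 at 3.60 and Fkbp5 at 3.29. Only 2 genes had at most 1 count in every WT library and at least 10 in every KO library, A1cf and Vwc2 (12 to 25 counts in KO), a count made after the values were seen.

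**Figure D2:**
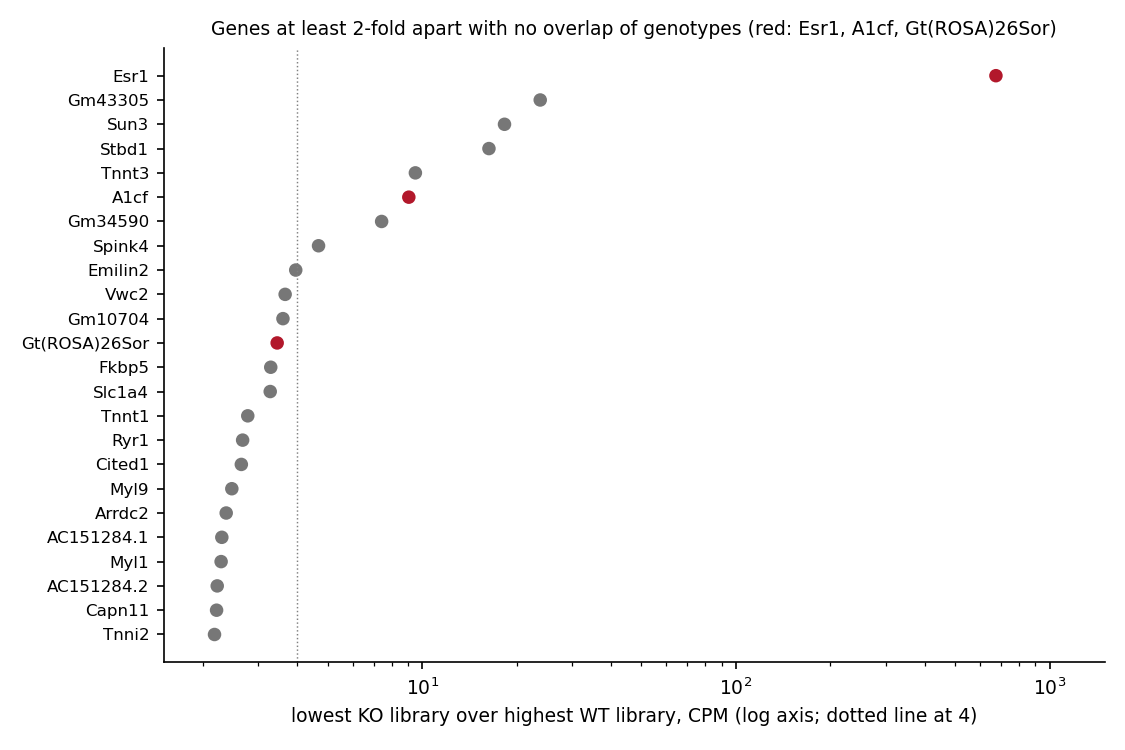
Lowest KO library over highest WT library in CPM (log axis) for the 24 genes at least 2-fold apart with no overlap of genotypes. WT was taken as at least 3 counts, and every KO library had at least 10. Esr1 stands alone at 675, A1cf lies at 9.06 and Gt(ROSA)26Sor at 3.45.

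The 3 members followed the genotype across the 17 libraries. Pearson r of log2 CPM was 0.983 between Esr1 and A1cf, 0.982 between Esr1 and Gt(ROSA)26Sor, and 0.976 between A1cf and Gt(ROSA)26Sor, values that the choice of members fixes. The gene nearest in pattern to Esr1 was Stbd1 (r = 0.990), ahead of Dmd, which encodes dystrophin (0.984), and Tnnt3 (0.984). Nearest to A1cf were Emilin2, an extracellular matrix glycoprotein (0.995), Ppp2r3a, a phosphatase subunit (0.992), and Fkbp5, a cochaperone of steroid receptors (0.991). Nearest to Gt(ROSA)26Sor were Sun3 (0.983), Nedd1 (0.981) and Frmd5 (0.981). With Spearman's rank correlation in place of r, the 5 nearest genes kept 0, 0 and 1 of their names.

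The time course was not used in choosing the members, and the tests apply to it in KO, and in WT for Gt(ROSA)26Sor. None of the 3 was called in KO at either time (edgeR quasi-likelihood test, adjusted p under 0.05), where 24.9% of genes were called at 4 h and 44.6% at 8 h. Esr1 in KO went from 2451 ± 127 CPM to 2319 ± 58.7 at 4 h and 2316 ± 49.6 at 8 h (SD, n = 3 each), and the lowest baseline library, 2356, lay below the highest of 4 h, 2365. On the scale set by trimmed means of M-values (TMM), the 4 h change was -0.08 ± 0.14 (log2, SE; adjusted p = 0.738, edgeR) and the 8 h change -0.08 ± 0.14 (adjusted p = 0.672, edgeR), at 8 h a fold of 0.945 with a 95% interval of 0.767 to 1.16. The spread in this test takes in WT replicate 3; without that library the SE was 0.04 and the adjusted p 0.110. Esr1 was called lower at 8 h when only the KO libraries of baseline and 8 h were fitted (-0.10, adjusted p = 0.0491, edgeR). It was also called lower when libraries were scaled by ribosomal protein genes (-0.47, adjusted p = 0.0377, edgeR).

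The size of this decline depends on what a count is taken to be worth. In the deposited ratios, each relative to the mean of the 3 baseline libraries of its genotype, Esr1 in KO stood at 0.908, 0.898 and 0.865 at 4 h and at 0.856, 0.799 and 0.806 at 8 h. All 6 lay below the lowest baseline ratio, 0.933. In those ratios a count of Esr1 at 8 h was worth 0.913 of a count at baseline, against 1.05 under TMM, 0.976 by library size and 0.802 by ribosomal protein counts. The deposited worth of a count also differed from gene to gene, from 0.892 to 0.994 over 6941 genes, and was 0.941 for Gt(ROSA)26Sor.

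A measure free of library scaling is the number of Esr1 counts per 100 counts of Myh6 in the same library, chosen after the data were seen. It was 12.7, 12.4 and 12.0 at baseline, 10.1, 11.3 and 10.7 at 4 h, and 9.83, 8.88 and 10.4 at 8 h. The baseline libraries did not overlap with either later time, and the 8 h mean was 78.4% of baseline (exact 2-sided permutation p = 0.1, the smallest that 3 against 3 can give). Myh6 itself rose in KO by 0.27 ± 0.08 at 8 h (log2, SE; adjusted p = 0.0160, edgeR) and was not called at 4 h (0.13 ± 0.08, adjusted p = 0.305, edgeR). Fold changes compare shares of a library, and a transcript that decays more slowly than the rest gains share while transcription is blocked.

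A1cf and Gt(ROSA)26Sor in KO held their share of the library within error. A1cf was at 1.84 ± 0.210 CPM at baseline, 2.08 ± 0.278 at 4 h and 1.89 ± 0.157 at 8 h (SD, n = 3 each), an 8 h fold of 1.03 (95% interval 0.744 to 1.42; adjusted p = 0.910, edgeR). Gt(ROSA)26Sor was at 9.96 ± 1.24, 10.0 ± 1.11 and 10.1 ± 0.811 CPM, an 8 h fold of 1.02 (0.879 to 1.18; adjusted p = 0.865, edgeR). The ranges of all 3 times overlapped for both genes. These directions hold only for TMM and similar scalings: by ribosomal protein genes the 8 h values were -0.35 for A1cf and -0.36 for Gt(ROSA)26Sor on the log2 scale, the second with an adjusted p of 0.00506 (edgeR). A1cf, at 0 in WT at baseline, has no row in the deposited ratios, and Gt(ROSA)26Sor in KO stood there at 0.845 to 1.01 over the 6 later libraries.

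**Figure D3:**
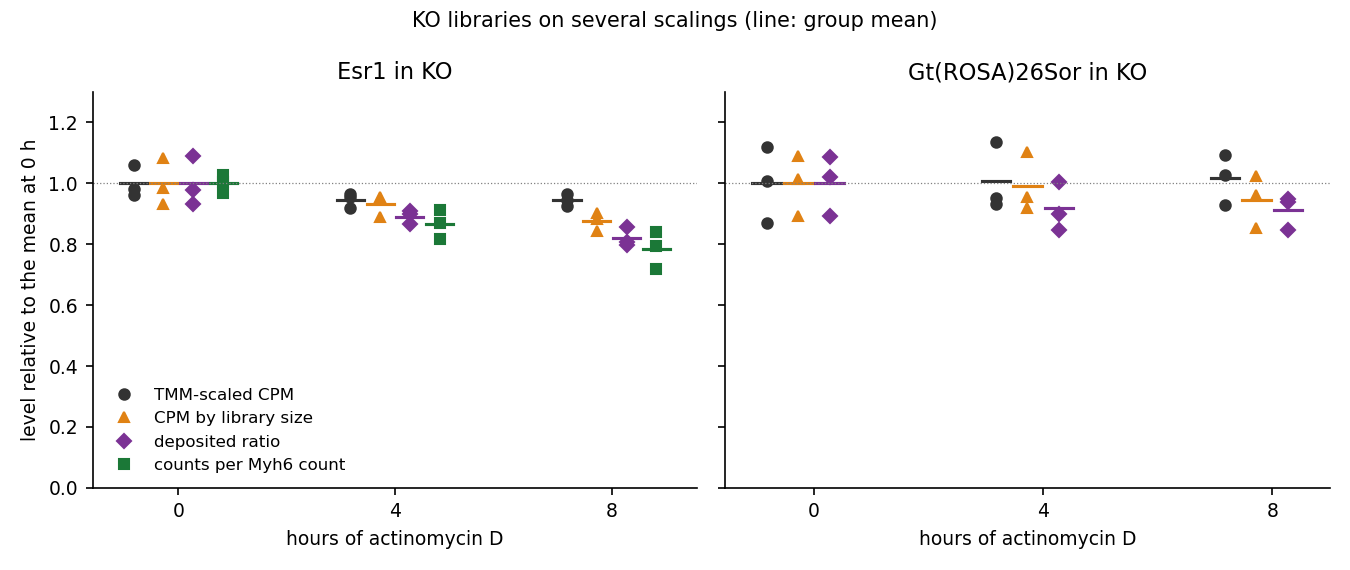
Levels of Esr1 and Gt(ROSA)26Sor in the KO libraries relative to their mean at 0 h, on TMM-scaled CPM, CPM by library size, the deposited ratios and, for Esr1, counts per Myh6 count (points are libraries, lines group means). Esr1 at 8 h ranges from 0.945 on the TMM scale to 0.820 in the deposited ratios and 78.4% per Myh6 count, while the Gt(ROSA)26Sor libraries of the 3 times overlap.

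In WT the few Esr1 counts rose during the block. The 8 h libraries, with 7, 8 and 57 counts, were all above the baseline libraries, with 1 to 3. The change was 3.70 ± 1.06 (log2, SE; adjusted p = 0.0119, edgeR), where 51.8% of genes were called; without replicate 3 it was 2.04 ± 0.48 (adjusted p = 0.00368, edgeR). Esr1 entered this test through its KO counts, and in a fit of the WT groups alone the low-count filter removed it. The WT change and its p-values are therefore given as a description. The 57 counts equal 0.150% of the mean KO count at 8 h, and the other WT libraries held 0 to 0.0210% of the KO mean of their time. Replicate 3 had 0 counts of A1cf and the fewest counts of Gt(ROSA)26Sor of its group, 32. A share of 0.150% of the KO counts of these genes (29 to 38 and 149 to 190) would be too small to see. Their counts therefore say nothing of the source of the Esr1 reads. The deposited ratio of replicate 3 for Esr1, 28.6, was the highest value of the whole ratio table. Where these reads came from was not tested.

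Whether Esr1 changed differently in the genotypes was not settled. The fitted change to 8 h in KO minus that in WT was -3.79 ± 1.07 (log2, SE), and -2.12 without WT replicate 3. Nearly all of it was the WT change of 3.70, beside -0.08 in KO. That WT change rests on 6 counts at baseline and 72 at 8 h. Esr1 entered this fit only through its KO counts, so the difference too is given as a description. It was not called in the main fit (adjusted p = 0.0721, edgeR), where 5.2% of genes were called, and was called in 6 of 25 alternatives. Its adjusted p ran from 3.24e-04 to 0.155 (edgeR) over those, and calls that rest on so few WT counts do not settle it. Gt(ROSA)26Sor in WT went from 1.91 ± 0.0884 CPM at baseline (SD, n = 3) to 1.38 ± 0.0766 at 4 h (SD, n = 2) and 2.23 ± 0.328 at 8 h (SD, n = 3). Its 8 h change was 0.22 ± 0.19 (log2, SE; adjusted p = 0.338, edgeR), which turned to -0.44 (adjusted p = 0.0345, edgeR) under ribosomal scaling. The difference of its changes between genotypes was -0.20 ± 0.22 (adjusted p = 0.698, edgeR), with the sign turned to 0.076 by ribosomal scaling.

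The genes around each member were tested for KO against WT. Of the 5 tested genes on each side, those of Esr1 had 2 called higher and 3 lower at baseline, those of A1cf 4 higher and 0 lower, and those of Gt(ROSA)26Sor 3 higher and 1 lower. Over all genes 18.8% were called higher and 17.9% lower. At 4 h the counts were 1 and 4, 2 and 1, and 2 and 1, where 14.6% and 17.4% of all genes were called. At 8 h these counts were 0 and 2, 3 and 0, and 0 and 2, where 13.9% and 13.7% of all genes were called. Some neighbours passed the low-count filter through 1 genotype alone, AC117816.1 beside A1cf and Srgap3 near Gt(ROSA)26Sor among them. Over neighbours that passed in both genotypes, a choice made after the data were seen, A1cf had 3 higher and 0 lower at baseline, 1 and 1 at 4 h, and 2 and 0 at 8 h, of 8. Gt(ROSA)26Sor then had 3 and 0, 2 and 0, and 0 and 1, of 7.

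Next to A1cf, a lincRNA separated the genotypes as A1cf did. AC117816.1 (ENSMUSG00000118366, chr19:31950084-31952361, plus strand) begins 1088 bases past the GENCODE end of A1cf and lies inside the longer RefSeq gene, which ends at 31952365. It had 22, 8 and 8 counts in KO at baseline, 10, 12 and 12 at 4 h, and 9, 11 and 9 at 8 h, and 0 in all 8 WT libraries. It was at least 12.6-fold higher in KO at baseline, at least 7.41-fold at 4 h and at least 9.41-fold at 8 h against 3 counts over the WT group. Like A1cf it passed the filter only through KO, and the difference is given as a description. Gm19241, a processed pseudogene within A1cf, was too low to test, with 24 counts over the 9 KO libraries and 2 over the 8 WT libraries, both in replicate 2 at 4 h. Counts of these overlapping or adjoining features may share reads.

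The other tested genes around A1cf differed by less than AC117816.1, and not in order of distance. Asah2, a neutral ceramidase gene (chr19:31982597-32108211, minus strand), was called only at 8 h (0.27 ± 0.09, log2, SE; adjusted p = 0.0139, edgeR). Prkg1, a cGMP-dependent protein kinase gene on the other side, was higher in KO at all 3 times, by 0.62 ± 0.07, 0.55 ± 0.08 and 0.81 ± 0.07 (adjusted p = 1.79e-10, 9.05e-08 and 2.06e-14, edgeR). Its KO libraries had 391 to 515 counts and its WT libraries 282 to 358, without overlap. Cstf2t and Sgms1 were called higher at baseline (0.22 and 0.19, adjusted p = 0.0118 and 0.0223, edgeR). Sgms1 was called lower at 4 h (-0.21, adjusted p = 0.0285, edgeR).

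Around Gt(ROSA)26Sor the immediate neighbours were not called. Thumpd3, which overlaps it on the other strand, had 151 to 203 counts in KO and 158 to 216 in WT and log2 differences of 0.03 to -0.19 between baseline and 8 h, with 0.24 at 4 h. Setd5, a chromatin regulator gene on the plus strand, starts at 113077365. That is next to 113077333, where the minus-strand Gt(ROSA)26Sor starts. Setd5 had 246 to 362 counts in KO and 227 to 464 in WT. Neither was called at any of the 3 times. Whether the counting used strand was not given in the sources used here, so reads of Gt(ROSA)26Sor and Thumpd3 in their overlap cannot be told apart. Srgap3, at lower coordinates (chr6:112717971-112947266, minus strand), had 0 to 2 counts in KO (8 in all) and 4 to 12 in WT (72 in all), without overlap. It passed the filter only through WT, and its counts are given as a description. Cav3, Mtmr14 and Camk1 were called higher in KO at baseline, by 0.24, 0.23 and 0.31 (log2, adjusted p = 0.00136, 0.0161 and 6.06e-05, edgeR). Cav3 and Camk1 were also called higher at 4 h (0.32 and 0.29). At 8 h Mtmr14 was called lower (-0.27, adjusted p = 0.00895, edgeR).

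Near Esr1 no gene followed the pattern of Esr1. Syne1, the next gene at higher coordinates and a nuclear envelope spectrin repeat protein, differed by 0.06, 0.18 and 0.09 (log2) at the 3 times and was called at 4 h alone (adjusted p = 0.0308, edgeR). Armt1, 179 kb below the Esr1 start, was lower in KO at all times, by -0.64 ± 0.12 at baseline (log2, SE; adjusted p = 1.60e-05, edgeR). Ulbp1, a ligand of a natural killer cell receptor, lies much further off (chr10:7440362-7473638). It was lower at baseline by -0.99 ± 0.20 (adjusted p = 3.58e-05, edgeR), as was Myct1 by -0.78 (adjusted p = 7.48e-05, edgeR). Rmnd1 and Mtrf1l were called higher at baseline, by 0.25 and 0.33 (adjusted p = 8.50e-04 and 0.00782, edgeR).

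**Figure D4:**
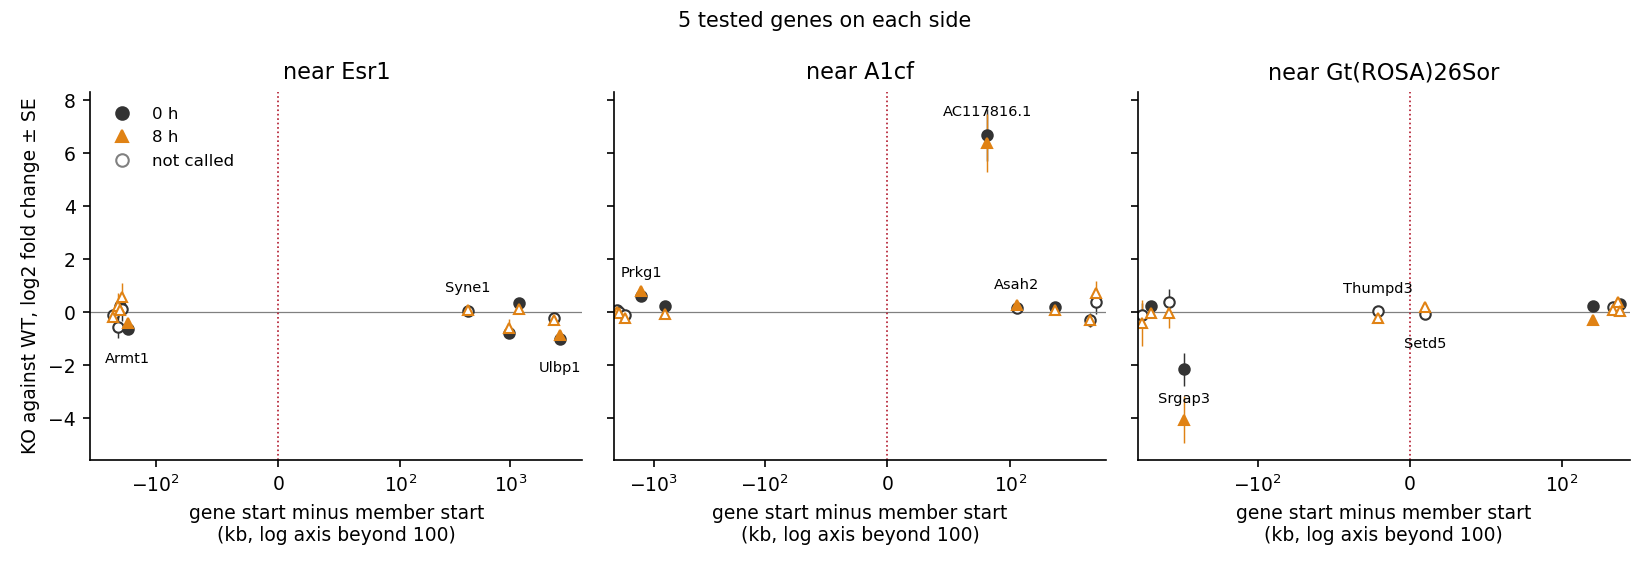
KO against WT (log2 fold change ± SE) at 0 and 8 h for the 5 tested genes on each side of each member; open symbols were not called. Genes are placed by distance in kb, on an axis that is logarithmic beyond 100 kb. The distance is between the lowest coordinates of the genes, whatever their strand. AC117816.1 lies near 6.70 beside A1cf, and Srgap3 at -2.15 and -4.05, fitted values that rest on counts at or near 0 in 1 genotype, and every other neighbour lies between -1 and 1.

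No other steroid receptor gene was called higher in KO, and of the 3 tested 2, 1 and 0 were lower at the 3 times (medians -0.24, -0.09 and -0.11), where 17.9%, 17.4% and 13.7% of all genes were lower. Esr2, the second oestrogen receptor, had 1 count over the KO libraries and 1 over the WT libraries, and Pgr, the progesterone receptor, 3 and 0, and neither could be tested. Gper1, a membrane oestrogen receptor, was not called (0.78 ± 0.34 at baseline, log2, SE; adjusted p = 0.0687, edgeR). Nr3c2, the mineralocorticoid receptor, was lower in KO at baseline (15.8 ± 0.560 against 21.01 ± 0.332 CPM, SD, n = 3 each; -0.42 ± 0.08, adjusted p = 1.29e-05, edgeR) and at 4 h (-0.62 ± 0.09, adjusted p = 4.65e-08, edgeR), and was not called at 8 h (-0.17 ± 0.08, adjusted p = 0.129, edgeR). Nr3c1, the glucocorticoid receptor, was lower at baseline alone (-0.24 ± 0.05, adjusted p = 3.32e-04, edgeR).

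The receptor's chaperones differed in both directions. Of 16 genes tested, 7 were higher and 3 lower in KO at baseline, 4 higher and 3 lower at 4 h, and 3 higher and 6 lower at 8 h. Of all genes, 18.8% were higher and 17.9% lower at baseline, 14.6% and 17.4% at 4 h, and 13.9% and 13.7% at 8 h. The medians were 0.03, 0.05 and -0.05 beside -0.02, -0.04 and -0.02 over all genes. Fkbp5, a steroid receptor cochaperone, stood out: it was at 12.0 ± 0.807 CPM in KO and 2.62 ± 0.401 in WT at baseline (SD, n = 3 each), and the difference was 2.18 ± 0.12, 2.12 ± 0.14 and 2.14 ± 0.13 (log2, SE) at the 3 times (adjusted p = 2.17e-23, 6.97e-20 and 1.53e-22, edgeR). Its KO libraries had 185 to 229 counts and its WT libraries 40 to 59. The heat-shock-inducible Hspa1a was lower in KO, at 5.72 ± 0.467 against 14.0 ± 0.793 CPM at baseline (-1.30 ± 0.11, adjusted p = 3.05e-16, edgeR), and stayed lower at 4 h and 8 h by -1.32 and -0.94. The constitutive Hsp90ab1, at 838 ± 27.0 and 773 ± 16.1 CPM, differed by 0.12 ± 0.04 at baseline (adjusted p = 0.0134, edgeR). Bag1, a cofactor of Hsp70 chaperones, was higher at baseline by 0.62, and Hspa1b, a near-identical copy of Hspa1a whose reads the counting may split, and Dnajb1, an Hsp40 cochaperone, were lower by -0.94 and -0.48.

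Coregulators also differed in both directions. Of 19 tested, 3 were higher and 3 lower at baseline, 4 and 3 at 4 h, and 8 and 1 at 8 h, where 18.8% and 17.9% of all genes were called at baseline, 14.6% and 17.4% at 4 h, and 13.9% and 13.7% at 8 h, with medians of 0.01, 0.03 and 0.14. The gene furthest below WT at baseline was Ddx17, an RNA helicase that binds the receptor, called lower at all 3 times and at -0.59 ± 0.05 at baseline (log2, SE; adjusted p = 3.96e-14, edgeR). Pelp1 and Nrip1, which bind the receptor, were lower at baseline by -0.31 and -0.22. Phb2, a prohibitin that represses the receptor, was higher by 0.40, 0.32 and 0.25, though at 4 h its sign turned (-0.039) under ribosomal scaling.

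Genes known to respond to oestrogen in other tissues were more often lower than higher in KO. Of 14 tested, 2 were higher and 10 lower at baseline, 0 and 8 at 4 h, and 0 and 6 at 8 h, where 18.8% and 17.9% of all genes were called at baseline, 14.6% and 17.4% at 4 h, and 13.9% and 13.7% at 8 h, with medians of -0.32, -0.29 and -0.14. Igf1, a growth factor, was at 1.44 ± 0.563 CPM in KO and 5.38 ± 0.371 in WT at baseline (SD, n = 3 each) and differed by -1.90 ± 0.19, -1.92 ± 0.21 and -1.30 ± 0.18 (log2, SE; adjusted p = 4.21e-13, 2.70e-11 and 4.65e-08, edgeR). Its KO libraries had 16 to 38 counts and its WT libraries 81 to 116. The binding protein Igfbp4 and the chemokine Cxcl12 were lower at baseline by -1.13 ± 0.18 and -0.88 ± 0.07. Cyp26b1, a retinoic acid hydroxylase, and Rara, a retinoic acid receptor, were higher at baseline by 1.04 ± 0.29 and 0.43 ± 0.13. Greb1, a classic target in breast cells, had 27 counts over KO and 35 over WT, Pgr 3 and 0, and Tff1 0 and 0, all too low to test.

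Partners of A1cf in C-to-U editing did not follow it. Apob, its editing substrate, had 1 count over all KO libraries and 0 over WT. Apobec1, the editing enzyme, was not called at any time (-0.18 ± 0.34 at baseline, log2, SE; adjusted p = 0.720, edgeR). Of the 8 editing-related genes tested, 3 were higher and 1 lower at baseline and at 4 h, and none was called at 8 h. Over all genes the shares were 18.8% and 17.9% at baseline, 14.6% and 17.4% at 4 h, and 13.9% and 13.7% at 8 h. Hnrnpab, an RNA-binding protein of the editing complex, was the highest of them, by 0.35 at baseline and by 0.32 at 4 h, where ribosomal scaling turned it to -0.042. Of 10 markers of liver, kidney and gut, the tissues that express A1cf, 9 were too low to test, and the list's summed level was 0.808 to 1.62 CPM in KO and 0.271 to 0.793 in WT. Their part in the A1cf counts was not tested.

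**Figure D5:**
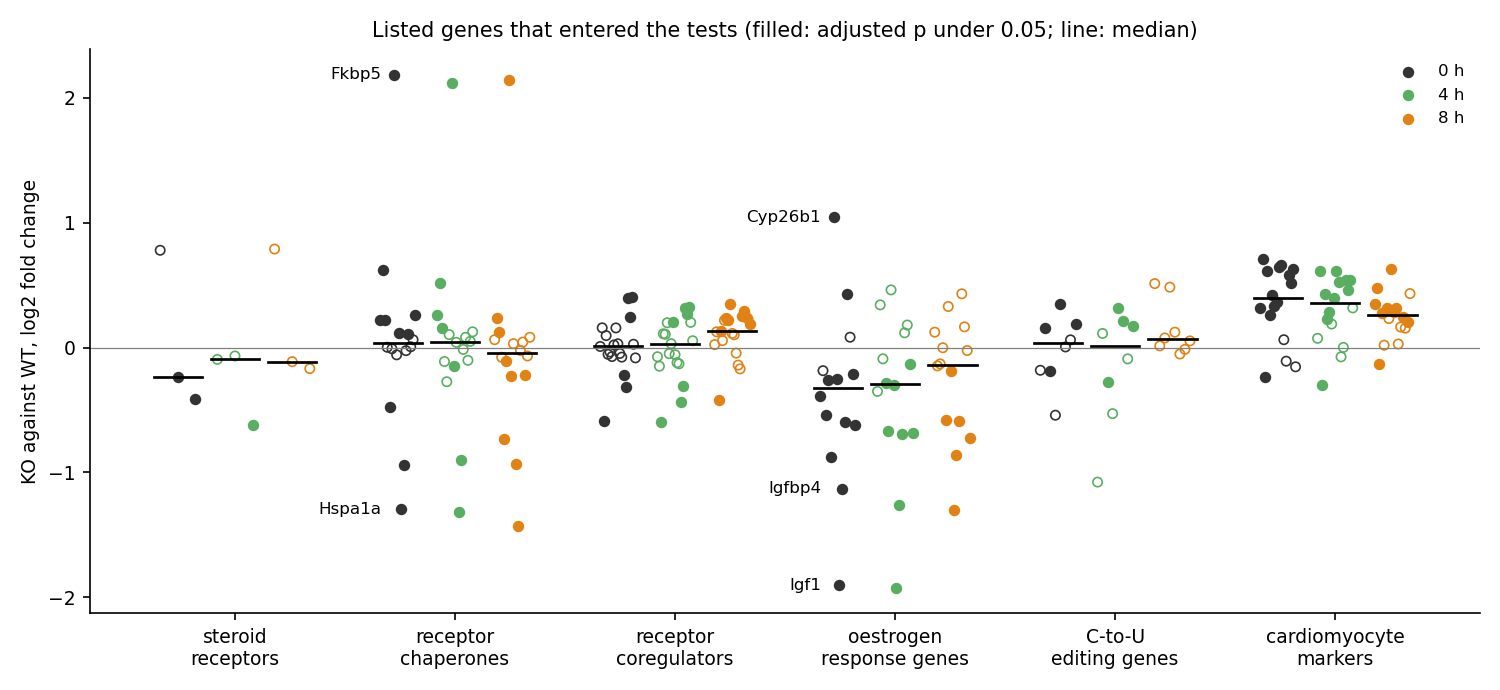
KO against WT (log2 fold change) at 0, 4 and 8 h for the tested genes of 6 lists; filled points have an adjusted p under 0.05 and lines are medians. Fkbp5 lies near 2.18 at the top, Igf1 and Hspa1a lie at -1.90 and -1.30 at baseline, and the cardiomyocyte markers have medians of 0.39, 0.36 and 0.26.

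Cell type markers differed between the genotypes too; of all genes 18.8% were higher and 17.9% lower in KO at baseline, 14.6% and 17.4% at 4 h, and 13.9% and 13.7% at 8 h. At baseline 12 of 16 cardiomyocyte markers were higher in KO and 1 lower, and their summed level was 84442 to 88866 CPM in KO against 70086 to 73140 in WT. Macrophage and leukocyte markers had 10 of 12 lower (39.6 to 44.3 against 92.2 to 107 CPM), endothelial markers 10 of 12 lower and 1 higher (220 to 256 against 308 to 326 CPM), and fibroblast markers 8 of 11 lower (48.8 to 52.7 against 84.1 to 87.8 CPM). No marker of these lists was at 0 in a whole group at baseline. By 8 h the macrophage markers had 3 higher and 1 lower, while 6 of 11 fibroblast markers were still lower (34.4 to 38.5 against 51.6 to 58.4 CPM). Of 8 pericyte and smooth muscle markers tested 0 were higher and 1 lower at each time, and of 4 sex-linked transcripts 0 were higher and 2, 1 and 1 lower. Igf1, Igfbp4 and Cxcl12 are also made by stromal cells, and the part of these cells in their differences was not tested.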

How the data were processed

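RNA from 17 libraries of mouse ventricular cardiomyocytes was sequenced. The authors deposited gene counts; STAR, featureCounts, DESeq2 and limma, with the GRCm38 and mm10 builds, are named per the submitters' processing notes, and their versions, strand setting and treatment of multimapping reads were not given in the sources used here. The authors also deposited ratios for 20174 genes, relative to the 0 h mean of the same genotype per the values, whose scaling differed from gene to gene. Of 55486 gene rows, 55140 (99.4%) matched GENCODE M21, and 1 row without an identifier (0.00735 to 0.0155% of a library) was left out. Counts were tested with edgeR 4.0.16 (R 4.3.3, TMM, quasi-likelihood, all 17 libraries in 1 fit, Benjamini-Hochberg over 13229 genes kept by filterByExpr with a minimum count of 10); DESeq2 1.42.0 was an alternative, as were other scalings and filters, a replicate block and leaving out each library. The edgeR code was tested on simulated data. Library totals of 17058419 to 17968827 set the precision; intervals and floors (3 counts) cover counting error only. Libraries of a group differed by 1.30 to 2.31 times Poisson noise, so none was a copy. The members and all gene lists (steroid receptors, chaperones, coregulators, oestrogen response, C-to-U editing and cell type markers) were chosen with earlier results of these data known. Names were drawn from the members, the 3 furthest called genes per list and direction, 5 neighbours a side, the genes nearest in pattern, and those at least 4-fold apart between extremes, and not all of these are named; Hsp90ab1, Gm10704, Vwc2, Gm19241, Myh6, Actn2, Ryr2 and the list genes named without a call (Apob, Apobec1, Greb1, Tff1) were named after their values were seen.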

Additional observations from a re-analysis of the deposited data

Results flagged for a closer look

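Of 60 tested genes in the lists of steroid receptors, chaperones, coregulators, oestrogen response and C-to-U editing, 3 changed differently in the genotypes from 0 to 8 h by the test of the difference itself (KO minus WT, log2, edgeR), close to the 5.2% called over all genes. Bag1, a chaperone cofactor, was at -0.38 ± 0.07 (SE; adjusted p = 6.73e-05), Med1, a Mediator subunit that binds nuclear receptors, at 0.31 (adjusted p = 0.0216), and Ctsd, a lysosomal protease, at 0.26 (adjusted p = 0.00335). The row of the count table without a gene identifier, which entered no comparison, was 1.74 times as high in KO as in WT (2080 to 2790 counts against 1295 to 1501); what it counts was not given in the sources used here.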

How the results depend on the processing

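Another scaling moved the values most. Library size alone moved the median of all genes by -0.11 for KO at 8 h and turned Gt(ROSA)26Sor in KO to -0.011 at 4 h and -0.079 at 8 h, A1cf at 8 h to -0.066, and Syncrip and Apobec2 at baseline to -0.022 and -0.051 (all log2). Ribosomal protein scaling moved that median by -0.39; it gave 11316 called genes in WT at 8 h, 2935 for the difference of changes, and 8092 and 7766 for KO against WT at 0 and 4 h. Under it KO values were -0.041 (A1cf) and -0.21 (Gt(ROSA)26Sor) at 4 h and -0.47 (Esr1), -0.35 (A1cf) and -0.36 (Gt(ROSA)26Sor) at 8 h, Gt(ROSA)26Sor in WT was -0.44, and the differences of changes were -3.54 (Esr1) and 0.076 (Gt(ROSA)26Sor). It also turned KO against WT at 0 h for Stip1 (-0.073), Prmt1 (-0.083), Syncrip (-0.14) and Apobec2 (-0.17), and at 4 h for Ahsa1 (-0.094), Safb (-0.032), Phb2 (-0.039), Prmt1 (-0.092), Hnrnpab (-0.042), Hnrnpr (-0.15) and Syncrip (-0.19). DESeq2 called 438 genes for the difference of changes and gave Esr1 -3.87, called, as under ribosomal scaling. Fitting only the groups compared gave Gt(ROSA)26Sor in KO -0.000705 at 4 h and Esr1 -0.10 at 8 h. Residual r of same-numbered libraries was -0.162 to 0.152 over 40 pairs. Only WT at 0 and 8 h had all 3 pairs over 0.1 (0.139, 0.116 and 0.1004), and with the replicate block the Esr1 change there was 3.74. Elsewhere the numbers were not taken as pairs. With a replicate block the Esr1 difference was -3.82, called on the same few WT counts, and no count of called genes moved by over 1.5 times. A ratio of extremes of 2 gave 24 genes higher and 33 lower, and one of 8 gave 4 lower. Leaving out single libraries gave -4.24 to -2.12 for the Esr1 difference, 422 to 925 called genes for the difference of changes, -0.082 to 0.10 for Gt(ROSA)26Sor in KO at 4 h and -0.063 to 0.11 at 8 h, and -0.026 to 0.14 for A1cf at 8 h. Without 1 WT library of 4 h, the other is assumed to vary like the other groups. The causes were not tested. A1cf, at 29 to 38 counts, is limited by depth.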
